A study of Mus musculus with 2 samples.

Results

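The replication-dependent histone genes of the mouse supply the H1, H2A, H2B, H3 and H4 proteins that package newly copied DNA. They were chosen here by name alone, as protein-coding genes of the Hist1, Hist2, Hist3 and Hist4 families. GENCODE M21 lists 67 such genes, and 64 of them had a row among the 43346 gene rows of the deposited tables. Hist1h2bh, Hist1h2bm and Hist2h2bb had no row under their gene identifiers and were not analysed here. The 64 members comprise 6 H1, 18 H2A, 15 H2B, 12 H3 and 13 H4 genes.

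The libraries, made from total RNA, represent the neural tubes of 2 B6NCrl mouse pups of 1 litter, taken on the day of birth (postnatal day 0) with sex not collected. Each library came from the tube of a single pup, with 10.0 ng of RNA above 200 bases and added spike-in RNA. The pups form 1 group with n = 2, so there is no contrast between conditions, and no p-value is given. A SMARTer Ultra Low RNA kit manual, for a method that primes complementary DNA on poly(A) tails, is listed among the protocols.

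Most genes of this kind lack introns, sit in tight clusters and are transcribed during S phase. Their mRNAs end in a conserved stem-loop in place of a poly(A) tail, and the stem-loop binding protein holds that structure through processing, export, translation and decay. Cells that have left the cell cycle draw on replication-independent histone genes, such as H3f3a and H3f3b, whose mRNAs carry ordinary poly(A) tails. In bulk tissue, fewer cells of a type and less RNA per cell cannot be told apart.

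The gene rows held 26916916 expected counts in pup 1 and 40003518 in pup 2, so that a floor of 3 counts was worth 0.111 and 0.0750 CPM (counts scaled to the library total). Neuronal markers (5 of 5), progenitor and radial glia markers (5 of 5) and trunk Hox genes (4 of 4) were above a TPM (transcript abundance scaled to length and library) of 1 in both pups, while Emx1 and Otx2 of the forebrain lay between 0 and 0.05 TPM. Mitotic markers were present (4 of 4), with summed levels of 70.91 and 62.46 TPM in pup 1 and pup 2. Markers of other cells were also seen: oligodendrocyte precursors 4 of 4, astrocytes 3 of 3, microglia 3 of 3, skeletal muscle 2 of 3 (Myog at 0 and 0.03 TPM) and cartilage 2 of 3.

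The forms of the stem-loop found in the members' transcripts are shown because those of the H4 genes differ from those of the other classes. The search took arms of 6 complementary bases, beginning with GG and ending with CC, around a loop of 4 bases (TT, then T or C, then A or C), on the transcript strand. Capitals mark the 16-base stem-loop and lower case the flanking bases, from GENCODE M21 transcripts.
Hist1h2ap: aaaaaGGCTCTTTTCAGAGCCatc
Hist3h2ba: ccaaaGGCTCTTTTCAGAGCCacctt
Hist1h1e: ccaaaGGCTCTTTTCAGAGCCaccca
Hist1h3e: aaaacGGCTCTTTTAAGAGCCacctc
Hist1h4d: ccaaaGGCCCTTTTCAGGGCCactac
Hist1h4b: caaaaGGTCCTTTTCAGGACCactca

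The form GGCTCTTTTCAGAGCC stood in 24 members of the H1, H2A, H2B and H3 classes. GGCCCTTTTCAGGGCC stood in 7 members and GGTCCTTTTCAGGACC in 2, all 9 of them H4 genes. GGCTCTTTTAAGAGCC stood in 6 members. In total 39 of 64 annotated members held a stem-loop after the stop codon, beginning 24 to 58 bases past it (median 32). Another 15 models ended within 20 bases of the stop codon, nearer to it than any of these stem-loops began, and the sequence beyond a model's end was not used here. They include Hist1h2bq, counted by Hist1h2bq-201. Its other transcripts, Hist1h2bq-202 and Hist1h2bq-203, run 823 and 1608 bases past the stop codon without a match. A further 10 models ran 20 bases or more past the stop codon without a match, among them those of Hist1h2bc (742 bases), Hist2h4 (1311 bases), Hist2h3b and Hist2h2be. Over the last 150 bases of 58695 protein-coding transcripts the same search matched 28 (0.0477%). Those transcripts came from 26 genes, 20 of them members.

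The bases before the start site of 3 high members are shown next because the promoters of the classes differ in their CCAAT and TATAAA letters. They are the last 120 bases before the start in RefSeq (GRCm38.p6), at chr13:21833476-21833595 on the minus strand for Hist1h2ap, at chr11:58948791-58948910 on the plus strand for Hist3h2ba and at chr13:23581448-23581567 on the plus strand for Hist1h4d. Capitals mark CCAAT or TATAAA on either strand, and overlapping matches were both counted.
Hist1h2ap: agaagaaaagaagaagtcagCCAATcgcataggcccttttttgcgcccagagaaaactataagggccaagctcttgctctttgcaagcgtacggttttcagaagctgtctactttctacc
Hist3h2ba: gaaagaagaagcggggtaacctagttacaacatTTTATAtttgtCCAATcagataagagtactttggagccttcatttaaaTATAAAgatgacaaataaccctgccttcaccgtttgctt
Hist1h4d: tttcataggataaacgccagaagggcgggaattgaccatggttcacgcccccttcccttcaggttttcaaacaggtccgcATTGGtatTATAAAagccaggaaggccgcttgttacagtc

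Of the 64 members, 59 had a promoter in the RefSeq table. CCAAT was found on either strand of the 250 bases before the start in 48 of 59 (81.4%), against 33.8% of 32851 promoters in the table. By class it was found in 6 of 6 H1, 18 of 18 H2A, 13 of 13 H2B, 8 of 10 H3 and 3 of 12 H4 promoters. Many H2A and H2B genes start close together on opposite strands, and their windows overlap. The same letters were then counted for both genes, so these promoters are not independent. TATAAA was found in 29 of 59 (49.2%), against 12.4% of the table. Both were found in 24 of 59 (40.7%), against 4.40%. Members detected in both pups held CCAAT in 19 of 21 promoters and those detected in neither in 21 of 29. All H1, H2A and H2B promoters held it whatever their detection, and classes were not separated in this comparison. A match describes letters in this window and no more.

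Detection was uneven across the members. With detection set at a TPM of 1 or more in each pup, 24 of 64 members (37.5%) were detected in both, against 63.8% of 21474 protein-coding genes. A further 8 members passed in pup 2 alone and 1 in pup 1 alone, a split that was not counted for all protein-coding genes. The other 31 passed in neither. Of these 31, 11 had 0 expected counts in both pups (17.2% of members), close to the 16.8% of protein-coding genes with 0 counts. They included the testis genes Hist1h1t, Hist1h2aa and Hist1h2ba. The median member stood at a mean of 0.80 TPM.

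Summed over members, the level was 596.75 TPM in pup 1 and 679.53 TPM in pup 2. The H2A class led with 325.67 and 359.29 TPM (342 ± 23.8, SD, n = 2). H2B followed with 123.79 and 145.84 TPM (135 ± 15.6), and H4 with 91.25 and 107.46 TPM (99.4 ± 11.5). H1, the linker histones, reached 33.04 and 41.48 TPM (37.3 ± 5.97), and H3 stood lowest at 23.00 and 25.46 TPM (24.2 ± 1.74). No neighbouring classes in this order overlapped between the pups. Although H3 and H4 enter the nucleosome core in equal numbers, the H4 sum lay above the H3 sum in both pups. Without Hist1h4d, the mean H4 sum was 22.26 TPM, below the 24.2 TPM of H3 with all its members. With its own highest member also left out, H3 stood at 14.4 TPM, below that H4 sum.

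**Figure D1:**
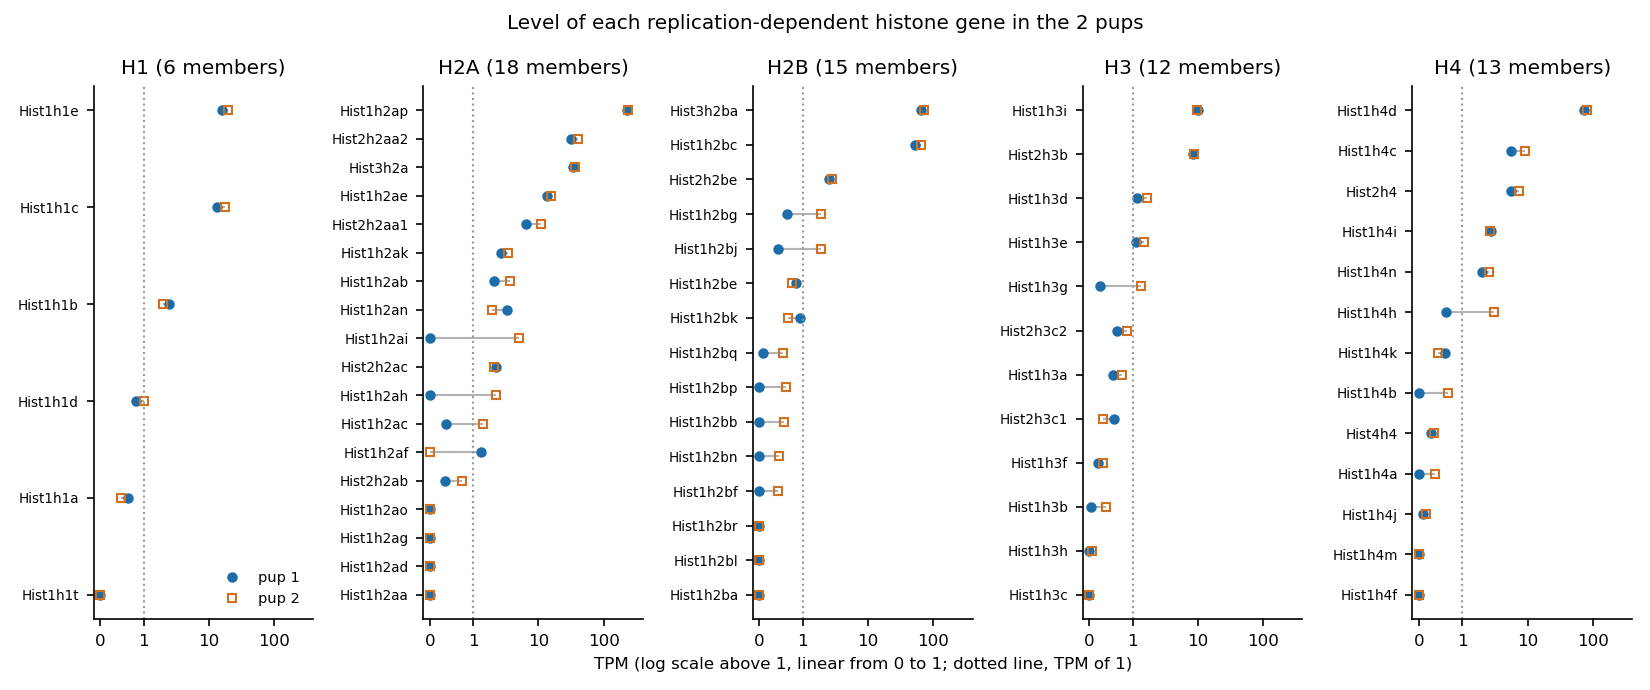
TPM of each of the 64 members in pup 1 (filled circles) and pup 2 (open squares), by histone class and ordered by mean, on an axis that is linear from 0 to 1 and logarithmic above. Hist1h2ap is highest at 227 and 236 TPM, and 31 of the 64 members lie left of the dotted line at a TPM of 1 in both pups.

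A few genes carried most of the signal. The 5 highest members held 75.6% of the summed TPM in pup 1 and 72.4% in pup 2, and the 10 highest held 90.2% and 87.0%. Hist1h2ap alone held 38.1% and 34.7%.

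Among the H2A genes, which encode the partner of H2B in the core dimer, Hist1h2ap on chromosome 13 (21833026 to 21833507, minus strand) stood at 227.36 TPM in pup 1 and 236.07 in pup 2 (1502 and 2402 expected counts). It ranked 637th of the protein-coding genes by mean TPM. Hist2h2aa2 followed at 32.02 and 40.31 TPM, and Hist3h2a at 34.26 and 35.78. The ranges of these last 2 overlapped, so their order was not resolved. Hist1h2ae reached 13.39 and 15.65 TPM, and Hist2h2aa1 6.36 and 10.91. Without Hist1h2ap, the mean sum of the H2A class was 110.8 TPM in place of 342, below that of H2B.

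Among the H2B genes, Hist3h2ba on chromosome 11 (58948920 to 58949533, plus strand) stood at 65.52 and 71.10 TPM and Hist1h2bc on chromosome 13 (23684199 to 23692908, plus strand) at 52.87 and 64.09. The pup values of these 2 did not overlap, but the authors' TPM intervals did in pup 2 (65.4 to 74.0 and 58.7 to 66.2). In CPM, not divided by length, they stood at 21.62 and 24.32 against 21.58 and 27.12, so their order was not resolved. The next, Hist2h2be, lay far below at 2.48 and 2.84 TPM. Of the 15 H2B members, 10 passed a TPM of 1 in neither pup.

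Hist1h4d on chromosome 13 (23581598 to 23582735, plus strand) was the leading H4 gene, with 73.55 and 80.64 TPM (373 and 630 expected counts). Its coding sequence shared no 100-base window with another gene. Hist1h4c (5.63 and 9.17 TPM) and Hist2h4 (5.64 and 7.33 TPM) overlapped each other and lay well below it. Hist4h4, the sole member of its cluster, stood at 0.29 and 0.34 TPM.

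The H3 class was spread thinly over Hist1h3i (10.04 and 9.61 TPM), Hist2h3b (8.44 and 8.61 TPM) and Hist1h3d (1.17 and 1.69 TPM). The pup values of Hist1h3i and Hist2h3b did not overlap. Their TPM intervals from the authors overlapped in both pups (6.40 to 12.1 and 5.75 to 10.5 in pup 1), so their order was not resolved. The 4 genes for H3.1 summed to 10.82 and 11.77 TPM and the 8 for H3.2 to 12.18 and 13.69.

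Linker histones came mainly from Hist1h1e, at 15.89 and 20.06 TPM, and Hist1h1c, at 13.25 and 17.91. Their ranges overlapped. Hist1h1b stood at 2.43 and 1.99 TPM, Hist1h1d at 0.83 and 1.03, and Hist1h1a at 0.64 and 0.49. Hist1h1c had the highest expected counts of the class, 333.89 and 695.39.

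By cluster, the 52 Hist1 genes on chromosome 13 summed to 437.98 and 498.24 TPM, and the 2 Hist3 genes on chromosome 11 to 99.78 and 106.88. The 9 Hist2 genes on chromosome 3 summed to 58.70 and 74.07 TPM. Within Hist1, a block of 17 members held 248.54 and 262.96 TPM, of which Hist1h2ap made up most, and a block of 28 members held 185.28 and 227.89. A block of 5 members held 4.16 and 7.39, and the pair Hist1h2aa and Hist1h2ba, known from testis, 0 and 0.

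Many H2A and H2B genes lie head to head, with start sites close together. In 12 such pairs, 175 to 305 bases apart, the H2A gene was higher in both pups in 4, the H2B gene in 4, and 4 were tied or differed between the pups. By posterior mean TPM, a comparison added after seeing the data, these numbers were 7, 3 and 2. Hist1h2ap stood at 227.36 and 236.07 TPM beside Hist1h2br at 0 and 0. In the reverse case Hist1h2bc stood at 52.87 and 64.09 beside Hist1h2ac at 0.38 and 1.39. Hist2h2ac (2.22 and 2.12) and Hist2h2be (2.48 and 2.84) were close to each other. The values of Hist1h2br, and of Hist1h2bq in another pair, leave out Hist1h2br-202 and Hist1h2bq-201. Those transcripts were deposited under gene identifiers outside the members, and the pairs were compared without them.

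The level assigned to single copies rests on how reads were divided between near-identical genes. Of 46 members with a transcript of the deposited length in GENCODE M21, 26 had over 50% of their 100-base windows in a transcript of another gene. Over coding sequence alone this held for 41 of all 64 members, by a measure chosen after seeing the data. It held for 15 of 18 H2A members, 9 of 12 H3 members and 0 of 6 H1 members. In 8 members no coding window was shared, among them Hist1h4d, Hist2h4, Hist2h2be and Hist4h4. For Hist1h2bq, Hist1h2br and Hist2h3c1, a transcript of the gene itself was deposited under another gene identifier. Its windows counted as those of another gene, so the shares of these members include overlap with themselves. Reads of that transcript are not in the member's level.

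**Figure D2:**
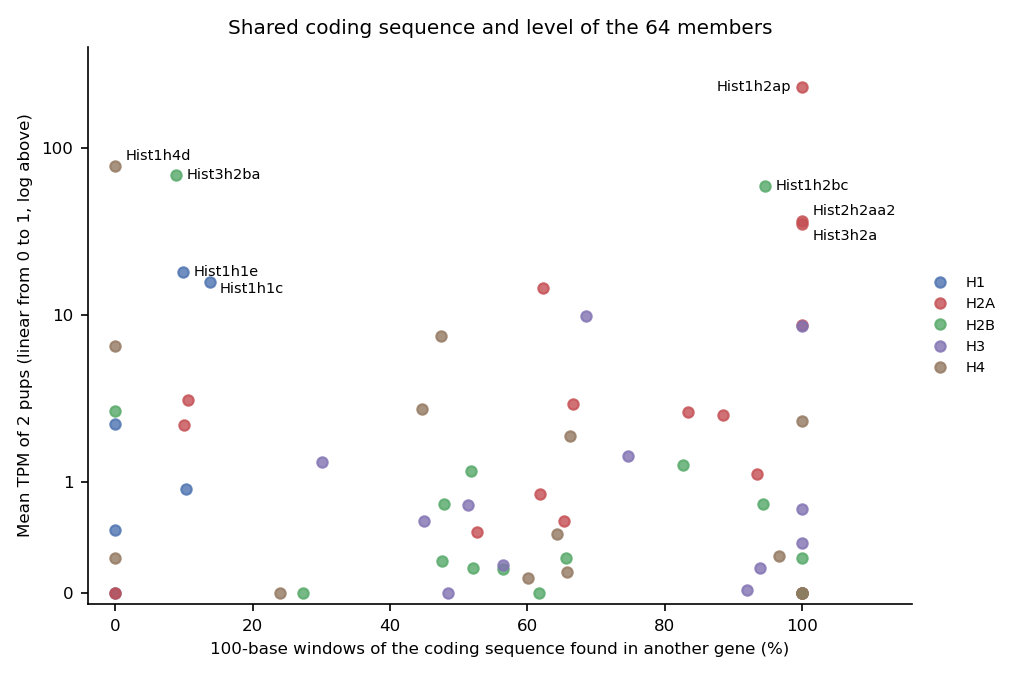
Mean TPM of the 2 pups (linear from 0 to 1, logarithmic above) against the percentage of 100-base coding windows found in another gene, one point per member, coloured by class. High members lie at both ends, with Hist1h4d at 0% and Hist1h2ap at 100%.

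Hist1h2ap shared 92.2% of its windows with Hist1h2ao, whose coding sequence was identical over 393 bases. Hist1h2ao had 0 expected counts in both pups, but posterior mean counts, the authors' second estimate, of 18 and 21.78. Hist1h2ag likewise had 0 expected counts and posterior means of 15.51 and 6.38. The corresponding values of Hist1h2ap were 1462 and 2365, under its expected counts by up to 40.37. Hist1h2an had 16.42 and 15.20 expected counts and posterior means of 7.51 and 14.06.

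For the largest group of copies the sum moved little between the 2 estimates. The 10 H2A members linked by over 50% shared windows summed to 1622 and 2661 expected counts and 1621 and 2646 posterior mean counts, although 6 of them had 0 expected counts in at least 1 pup. As TPM the group stood at 247.41 and 264.57. Hist2h2aa1 and Hist2h2aa2, identical in coding sequence, summed to 38.38 and 51.22 TPM, and Hist2h3b, Hist2h3c1 and Hist2h3c2 to 9.64 and 9.81. Small groups moved more: Hist1h2bk, Hist1h2bq and Hist1h2br summed to 8.63 expected and 5.75 posterior mean counts in pup 1, and a group of 5 H4 members to 1.33 and 2.48 TPM by the 2 estimates there.

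Overlapping annotation adds uncertainty to other members. Overlaps on the same strand remain under any strand setting, while antisense overlaps depend on that setting, which is not given in the sources used here. Hist3h2a lies within Trim17 on the same strand, which was the source of its shared coding windows (100%), and Trim17 stood at 0.52 and 0.39 TPM. Hist1h1e shares 496 bases with Hist1h2be, also on the same strand. Gm20634 (0.36 and 0.79 TPM) overlaps 529 bases of Hist2h2aa1 and all of Hist2h3c1, again on the same strand. Antisense genes cover Hist2h2aa2, Hist2h2aa1 and Hist2h3b, at levels between 0.31 and 1.66 TPM.

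Gene models also differed between annotations, which bears on every value divided by length. Of 69 deposited member transcripts, 48 had the same length in GENCODE M21, 18 were longer there and 3 shorter. Hist1h4d grew from 393 to 1138 bases, Hist1h1e from 748 to 1930, Hist1h2bc from 736 to 1156 and Hist1h4c from 395 to 820. In M21, 20 members run more than 60 bases past the stem-loop and held 38.3% of the summed TPM in each pup. That TPM rests on the deposited lengths, which are shorter for some of the 20, Hist1h4d and Hist1h1e among them. Among members of unchanged length, Hist3h2a runs 1643 bases past the stem-loop, Hist1h1c 840 and Hist3h2ba 169, whereas Hist1h2ap stops 3 bases past it. Where 4 members had several transcripts, Hist1h2be-203 took 64.34% and 61.82% of its gene's TPM. For Hist1h2bq, Hist1h2bq-203 took 100% in pup 1 and Hist1h2bq-202 took 100% in pup 2, on 2.50 and 28.76 counts. Hist1h2bq-201 is not part of this split, as it was deposited under another gene identifier.

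Between the pups, members leaned to higher normalised counts in pup 2. With TMM scaling, a prior count of 2 and a minimum mean count of 10, the median log2 ratio of pup 2 over pup 1 was 0.37 over 34 members, against 0.00 over 18105 genes. It was above 0 in 29 of the 34 members, against 9057 of the 18105 genes, and in 20 of 34 members, against 2213 of 18105 genes, when scaled to spike-in totals. That scaling, which rests on 335 and 603 spike-in counts, lowered the median of all genes to -0.29 and of the members to 0.10. At a mean count of at least 50 the ratio was above 0 in 15 of 15 members (median 0.29), against 7421 of 14823 genes, with TMM. With spike-in totals, which shift the ratios of all genes down together, it was above 0 in 8 of 15 members against 1179 of 14823 genes. Each side is 1 library, so there is no replicate check.

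**Figure D3:**
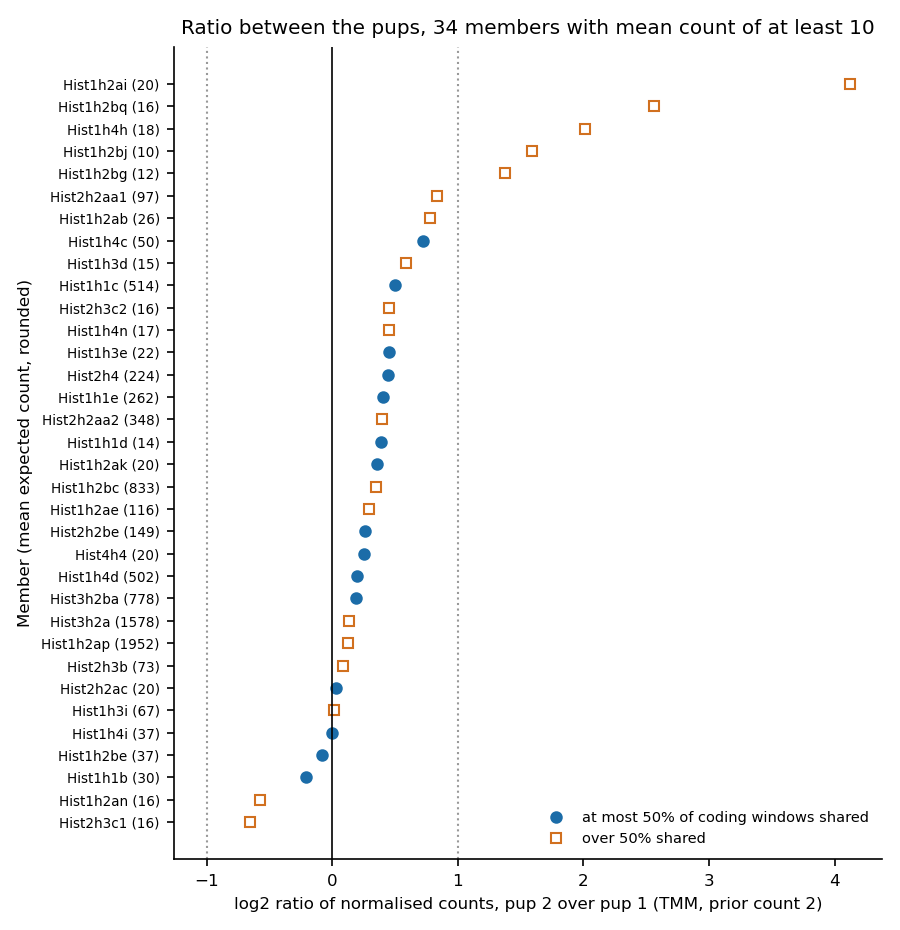
Log2 ratio of normalised counts, pup 2 over pup 1, for 34 members at a mean count of 10 or more, with mean counts in brackets and dotted lines at 2-fold. Filled circles share at most 50% of coding windows with another gene and open squares more. The 5 members past 2-fold are all open squares with low counts, and many members within 2-fold are open squares too.

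At least 2-fold, 5 of 34 members (14.7%) differed, against 2.39% of genes. All 5 were higher in pup 2 (1.59% of genes) and 0 were lower (0.806%). Each of the 5 had fewer than 10 counts in pup 1 and reached the minimum mean count through pup 2, the deeper library. That minimum was set on counts not scaled for depth, which favours genes high in pup 2. Hist1h2ai had 0 and 39.03 expected counts but 5.86 and 32.56 posterior mean counts (log2 1.66), so no fold is given on its expected counts. Hist1h2bq had 2.50 and 28.76 counts, a ratio of 9.87 with a 95% exact counting interval of 2.50 to 85.4. Those counts leave out Hist1h2bq-201.

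The other 3 were as shallow. Hist1h4h had 4.10 and 30.92 counts (log2 2.02), Hist1h2bj 2.61 and 18.33 (ratio 4.09, interval 1.19 to 21.7) and Hist1h2bg 4.19 and 18.95 (log2 1.37, or 1.00 on posterior mean counts). Each of the 5 shared over 50% of its coding windows with other genes, as did 41 of all 64 members. At a mean count of at least 50, 0 of 15 members passed 2-fold, against 0.688% of genes (0.56% higher and 0.128% lower in pup 2). The authors' TPM intervals did not overlap between the pups for Hist1h4h, Hist1h2bc and Hist1h1c. The level of the authors' intervals is not given in the sources used here, and the exact intervals cover counting error only.

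Members above a TPM of 1 in a single pup were likewise shallow. Hist1h2ah (0 and 2.21 TPM), Hist1h2ac (0.38 and 1.39), Hist1h3g (0.24 and 1.34) and Hist1h1d (0.83 and 1.03) passed in pup 2, as did Hist1h2ai, Hist1h4h, Hist1h2bg and Hist1h2bj. Hist1h2af passed in pup 1, at 1.30 and 0 TPM on 6.74 and 0 counts. By posterior mean TPM, Hist1h2ah stood at 1.31 and 2.11 and Hist1h2ai at 1.31 and 4.2, above 1 in both pups.

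Other measures moved between the pups too. Hoxc8, a marker of position along the spinal cord, stood at 22.83 and 52.01 TPM (log2 1.22). Hoxa7 was also higher in pup 2 (84.67 and 125.98 TPM), while Hoxb6 (94.3 and 84.2) and Hoxb8 (53.48 and 45.53) were lower. The 4 Hox markers summed to 255.28 and 307.72 TPM. The haemoglobin gene Hba-a2 stood at 1702 and 1287 TPM (log2 -0.33), while Hemgn, another erythroid marker, was near 0 (0.03 and 0 TPM). The 30 S phase genes summed to 426.36 and 399.69 TPM, with a median log2 ratio of -0.07. Their part in the ratio of the histone genes was not tested.

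Of 12 listed replication-independent histone genes, 11 were detected, and 3 lay above Hist1h2ap, the highest member. They were H3f3a at 1384 and 1364 TPM, H3f3b at 843.69 and 902.33 and H2afz, a variant of H2A, at 507.05 and 564.08. Cenpa, the centromeric H3, was lowest of the detected at 18.11 and 18.38, and H2al2a was at 0. For H3 the replication-independent genes summed to 2246 and 2285 TPM, 93.7 ± 5.58 times (SD, n = 2) the members of that class. The ratio was 3.02 ± 0.108 for H2A and 4.49 ± 0.283 for H1. The members thus made up 1.01% and 1.10% of the H3 sum, and 24.4% and 25.4% of the H2A sum. Whether mRNAs without a poly(A) tail were sampled like those with one in these libraries was not tested, and these ratios would carry any such difference.

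**Figure D4:**
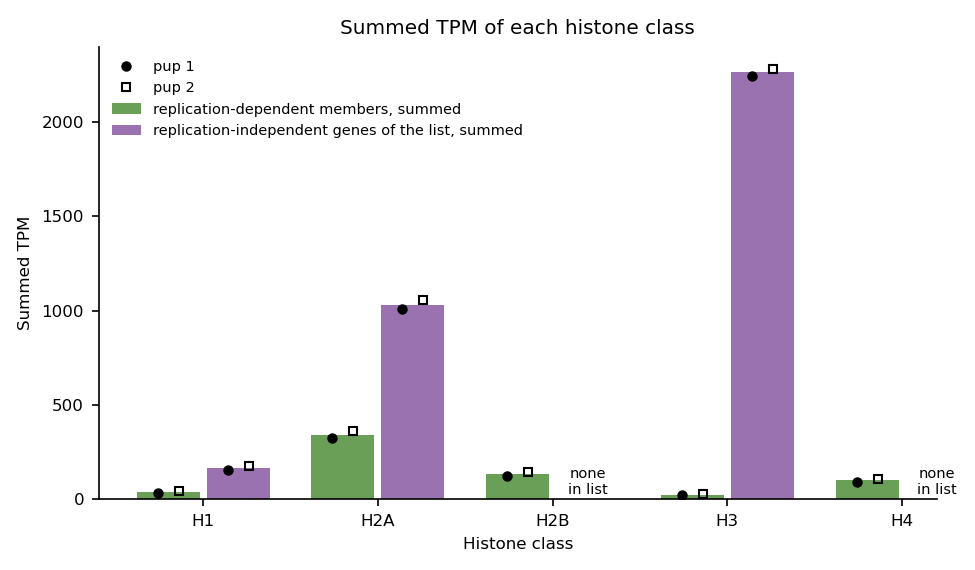
Summed TPM of the replication-dependent members and of the listed replication-independent genes of each class, with bars at the mean and points for pup 1 (circles) and pup 2 (squares). The replication-independent sum for H3, 2246 and 2285 TPM, stands far above the 23.00 and 25.46 TPM of the members, and no such gene was listed for H2B or H4.

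The genes that make and handle histone mRNA and protein were widely detected. Of 20 processing and turnover genes with a row, 19 passed a TPM of 1 in both pups. Slbp, the stem-loop binding protein, was highest at 93.74 and 95.84 TPM, followed by the cap-binding Ncbp2 (61.94 and 55.39) and the cleavage enzyme Cpsf3 (49.87 and 47.90). Zfp473, a zinc finger protein of the processing machinery, was lowest at 0.75 and 0.63.

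All 17 listed chaperones passed, from Rbbp7 (173.15 and 174.48 TPM), Rbbp4 (151.70 and 161.30) and Atrx (155.70 and 146.26) down to Chaf1a (3.51 and 2.87), a subunit of the assembly factor that loads H3 and H4 at the fork. All 30 S phase genes passed, led by the sliding clamp gene Pcna (76.33 and 73.86 TPM) and the helicase genes Mcm7 (29.83 and 25.86) and Mcm6 (26.52 and 27.69), with Cdc6 lowest (1.72 and 1.43). In these lists 0 genes passed 2-fold between the pups. Of 8 other RNAs without a poly(A) tail, 5 were detected. Rn7s1 (16141 and 16173 TPM) and Rn7s2 (16140 and 16174 TPM), copies of the 7SL RNA gene that may share reads, were highest, then Rn7sk (386.14 and 428.61 TPM), and Rny1 and Rny3 were at 0.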

How the data were processed

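RNA from 2 neural tubes was measured in 2 libraries, treated as 1 group. Per the file headers, the authors deposited expected counts (estimated reads, not whole) and posterior mean counts, TPM over all rows and percent of gene TPM per transcript, in columns named as RSEM writes them. The deposited bounds of TPM intervals are treated as a score on the TPM scale. The deposited notes name mm10 and GENCODE M4. Which aligner, RSEM version and strand setting were used is not given in the sources used here. Effective length was length minus 99 bases. Spike-in and tRNA rows, 0.00131% and 0.00152% of counts, stayed out of library sizes.

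Symbols came from GENCODE M21 by gene ID. Expected counts were rounded for ratios. Scaling used edgeR 4.0.16 (TMM), with DESeq2 1.42.0, totals and spike-ins as alternatives, in R 4.3.3. The ratio and window steps were tested on simulated data. Other steps used Python 3.11.15, pandas 2.3.3 and scipy 1.17.1. Named were, per class, the 3 highest members by TPM and the highest by count; members detected in 1 pup; those past 2-fold; the 5 largest gaps between count estimates; Hist2, Hist3 and Hist4 members at a TPM of 1 or more; and the 3 highest and the lowest of each list. Members named beyond this were chosen after their values were seen. Some marker genes of the lists are not reported here. Members and lists were chosen with earlier results of these data known. The 60-base limit past the stem-loop and the search beyond the last 150 bases were chosen after seeing the data. The pups share a litter, so their spread reflects 1 litter.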

Additional observations from a re-analysis of the deposited data

Results flagged for a closer look

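Of 3 pseudogene rows of the histone families, which lay outside the member rule, 2 held expected counts above the floor of 3, and Hist1h2al had 0 and 0. Hist1h2aj, an unprocessed pseudogene in the H2A copies, had 8.22 expected counts in pup 1 and 0 in pup 2, with posterior mean counts of 7.09 and 12.76. It shares 78.9% of the windows of Hist1h2ai, which had 0 and 39.03 counts. Hist3h2bb-ps, a processed pseudogene, had 11.96 and 12.09 expected counts (1.89 and 1.24 TPM). With 2 samples in the group, no value could be checked against others of its group for standing apart.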

How the results depend on the processing

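No paired analysis was possible because the 2 samples form 1 group. Detection in both pups (24 members) was 14 at a TPM of 5. It ranged from 25 to 32 with 1 pup left out, and at other settings, including a lower TPM bound of at least 1 (19 members, chosen after seeing the data), stayed within 1.5 times. The share of the 5 highest was 74.0% by TPM, 71.1% by expected counts, and 72.4% to 75.6% by single pup. Without its highest member, each class mean moved to 19.29 (H1), 110.8 (H2A), 66.5 (H2B), 14.4 (H3) and 22.26 TPM (H4). In CPM, not divided by length, class means were 24.04, 124.6, 54.25, 6.734 and 25.63, and cluster means 137.3 (Hist1), 27.61 (Hist2), 69.77 (Hist3) and 0.5725 (Hist4). By single pup, class sums ranged from 33.04 to 41.48, 325.67 to 359.29, 123.79 to 145.84, 23.00 to 25.46 and 91.25 to 107.46 TPM, and cluster sums from 437.98 to 498.24, 58.70 to 74.07, 99.78 to 106.88 and 0.29 to 0.34.

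The median log2 ratio of 0.37 moved to 0.10 with spike-in totals and ranged from 0.29 to 0.45 otherwise. Members past 2-fold (5) became 0 at a mean count of 50 and 16 at 1 count in either pup. The share over all genes was not counted at that last setting, so the 16 is not read as a result about the members. With 1 pup left out no ratio exists. Members sharing most of their sequence numbered 26, 31 with 50-base windows and 41 over coding sequence of all members. Posterior mean TPM moved 19 of 64 single members beyond the spread between pups, 11 of which were at 0 in both pups and so had no spread. The sequence past the ends of gene models, listed for the stem-loop search, was not run. Depth limits members under about 10 counts, where 3 counts are the floor.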
